A study of Mus musculus with 72 samples.

Results

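The genes described here are 33 members of the p53 pathway, namely the gene of p53 itself (Trp53) and 32 genes known as its targets or partners. They are given by a list of gene symbols. They are 33 of the 45321 genes matched to a transcript of the count tables, and all 33 passed the filter on low counts that kept 18273 genes for testing. By role, 3 members are the factor, its relative Trp73 and its ubiquitin ligase Mdm2, 8 act in cell cycle and growth arrest, 13 in apoptosis, 5 in metabolism, nutrient and stress signalling, and 4 in DNA repair and nucleotide supply.

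The cells were mouse embryonic stem cells with or without Nup133, a subunit of the Y-complex that forms the scaffold of the nuclear pore, followed over 3 days of differentiation towards neuroectoderm. Controls were 2 biological replicates of HM1 (Nup133+/+, 40 chromosomes, XY) and a line from blastocysts, 1A4 (Nup133+/+, Sox1gfp/+, 40 chromosomes, XY). Knockouts were lines 14 (40 chromosomes, XY) and 19 (likely 40 chromosomes, XY), both Nup133-/- derivatives of HM1 made with CRISPR/Cas9, and the blastocyst-derived line 319 (Nup133merm/merm, Sox1gfp/+, 42 chromosomes, XX with an extra chromosome 8 and 12). Each knockout sample is therefore a different line, whereas the 2 HM1 controls are the same line. Day 0 cells came from serum with leukemia inhibitory factor (LIF) on Mitomycin-C inactivated DR4 fibroblast feeders, which were removed by plating for 20 minutes. Day 2 cells had grown without feeders in N2B27, and day 3 cells had then received 1 µM all-trans retinoic acid for 24 h. There were 3 samples per genotype and day, and each sample was sequenced as 4 technical replicates, which were added up. The comparisons ask how the p53 pathway stood in Nup133-deficient cells at each day, and how its genes moved between days.

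p53 is a transcription factor that is kept low by Mdm2, the ubiquitin ligase that marks it for degradation and is itself a p53 target. When DNA damage or other stress releases p53 from Mdm2, it binds pairs of a short palindromic sequence, the p53 decamer, and raises genes that stop the cell cycle, start apoptosis, alter metabolism and repair DNA. Control of p53 is largely at the protein level, which messenger RNA counts do not measure. Mouse embryonic stem cells are known for abundant p53 mRNA and protein and for a short G1 phase.

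The sequences before the start sites are shown because p53 acts through the decamer. RefSeq windows of 250 bases before to 50 after a start site on GRCm38.p6 (the build mm10 of the counts) were found for 25 of the 33 members, in 34 windows. The decamer (RRRCWWGYYY, with R a purine, W an A or T and Y a pyrimidine) equals its own reverse complement and so was searched on both strands at once. Only exact matches were counted and marked. It was in 12 of these windows (35.3%), against 8.36% of all 32851 windows. The 12 windows belonged to 11 members, since overlapping windows of Aen held the same decamer. A pair with at most 13 bases between was in 1 member window, that of an upstream start site of Cdkn1a, and in 0.0731% of all windows. In the stretches below capitals mark the decamer, and each stretch is read 5′ to 3′ on the strand of its gene and stops at or before the start site. The bases directly after the second marked decamer of Cdkn1a miss the pattern at their first letter alone, and so are not marked. The Gtse1 match lies after the start site of its transcript, so that the decamer alone is shown.
Cdkn1a, chr17:29090829-29090978, plus strand: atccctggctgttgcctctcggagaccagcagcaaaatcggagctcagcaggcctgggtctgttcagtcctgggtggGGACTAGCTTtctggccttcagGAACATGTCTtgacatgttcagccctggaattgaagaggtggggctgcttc
Mdm2, chr10:117710915-117710964, minus strand: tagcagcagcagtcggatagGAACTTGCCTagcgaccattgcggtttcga
Trp53, chr11:69580264-69580313, plus strand: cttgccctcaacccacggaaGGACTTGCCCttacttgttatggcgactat
Ei24, chr9:36797335-36797384, minus strand: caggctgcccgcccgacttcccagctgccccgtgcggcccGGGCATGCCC
Gtse1, chr15:85859955-85859964, plus strand: GGGCTTGCCT
The windows of Sesn2, Plk2, Pidd1, Trp73, Ddit4 and Gdf15 held no such sequence, and those of Perp and Pmaip1 were not analysed here. A match is a description of letters in the window and shows no binding.

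Depth ran from 16.5 M gene counts (line 19, day 2) to 54.4 M (line 14, day 3). Nup133 lay between 180 and 323 CPM (counts relative to the sample's total, TMM-scaled) in the 9 control samples and between 14.3 and 37.1 CPM in the 9 knockout samples, so the target gene matched the genotype labels. The 8 pluripotency markers summed to 4925 to 6997 CPM at day 0 and to 330 to 989 CPM at day 3, while 6 neural progenitor markers summed to 56.1 to 177 CPM at day 0 and to 307 to 1123 CPM at day 3. The 16 fibroblast markers, of which 14 passed the filter, summed to 126 to 429 CPM over all samples. Of these 16, 10 stayed above 1 CPM in every sample, led by Tagln (median 44.6 CPM), Col1a1 (40.4) and Col1a2 (34.7), and 2, Lum and Fap, stayed below it in every sample. In such bulk samples, fewer cells of a type and less RNA per cell cannot be told apart. 1 library stood apart, that of line 19 at day 2, in which short transcripts ran high and long ones low, as described with its values further on, and the main day 2 and day 3 results are also given without it.

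Per kilobase of the counted transcript, Trp53 was the most abundant member in the day 0 controls at 301 CPM per kb ± 59.5 (SD, n = 3). Bax followed at 293 ± 37.7 CPM per kb, within the spread of Trp53, and then the cyclin gene Ccng1 at 144 ± 31.6, Gtse1 at 101 ± 7.39 and Ckap2 at 66.5 ± 2.56 CPM per kb. Mdm2 (60.7 ± 11.5 CPM per kb), Ei24 (57.1 ± 2.92 CPM per kb) and Sesn2 (51.5 ± 7.82 CPM per kb) did not differ beyond their spread. Cdkn1a had rank 10, at 39.2 ± 11.8 CPM per kb. At the low end were Trp73 (1.96 CPM per kb), Rrm2b (1.83), Gdf15 (0.949) and Fas (0.574).

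Between genotypes the members showed no called change at day 0, 1 at day 2 and 6 at day 3, and all 7 of these calls were for higher levels in the knockouts. At day 0, 0 of 33 members were called in edgeR's quasi-likelihood test at an adjusted p under 0.05, where 0.854% of all genes tested were called. At an unadjusted p under 0.05 there were 2 members, a smaller share than the 10.6% of all genes, and DESeq2 also called 0 (3.1% of all genes). At day 2, Ei24 alone was called higher (background 0.635%) and 0 members lower (background 0.963%). At day 3, 6 members were called higher, against 2.75% of all genes, and 0 lower, against 2.45%. The 6 were Gtse1, Plk2, Pidd1, Perp, Ei24 and Sesn2. DESeq2 called 10 members at day 3, 9 higher and 1 lower, and its 10 held all 6, while it called 11.3% of all genes against 5.2% in edgeR.

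The median log2 fold change of the 33 members, knockout against control, was 0.09, 0.30 and 0.39 at days 0, 2 and 3, whereas the median of all genes tested was between 0.01 and 0.02 at each day. Values were positive for 23, 27 and 26 of the 33 members at the 3 days. At day 3, all 3 knockout samples lay above all 3 controls for 16 members (48.5%), which held for 17.6% of all genes, and below them for 5 members (15.2%), against 17.6%. Non-overlap was rarer earlier. At day 0 it was 5 members above and 2 below, against 8.06% and 9.7% of all genes, and at day 2 also 5 above and 2 below, against 9.94% and 11.7%. Without the library of line 19, the day 2 median was 0.35 with 26 of 33 values positive, and 3 members were called, all higher, against 2.01% of all genes. Lines 14 and 319 then lay above all 3 controls for 11 members, against 17.1% of all genes, and below them for 3, against 18.9%.

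**Figure D1:**
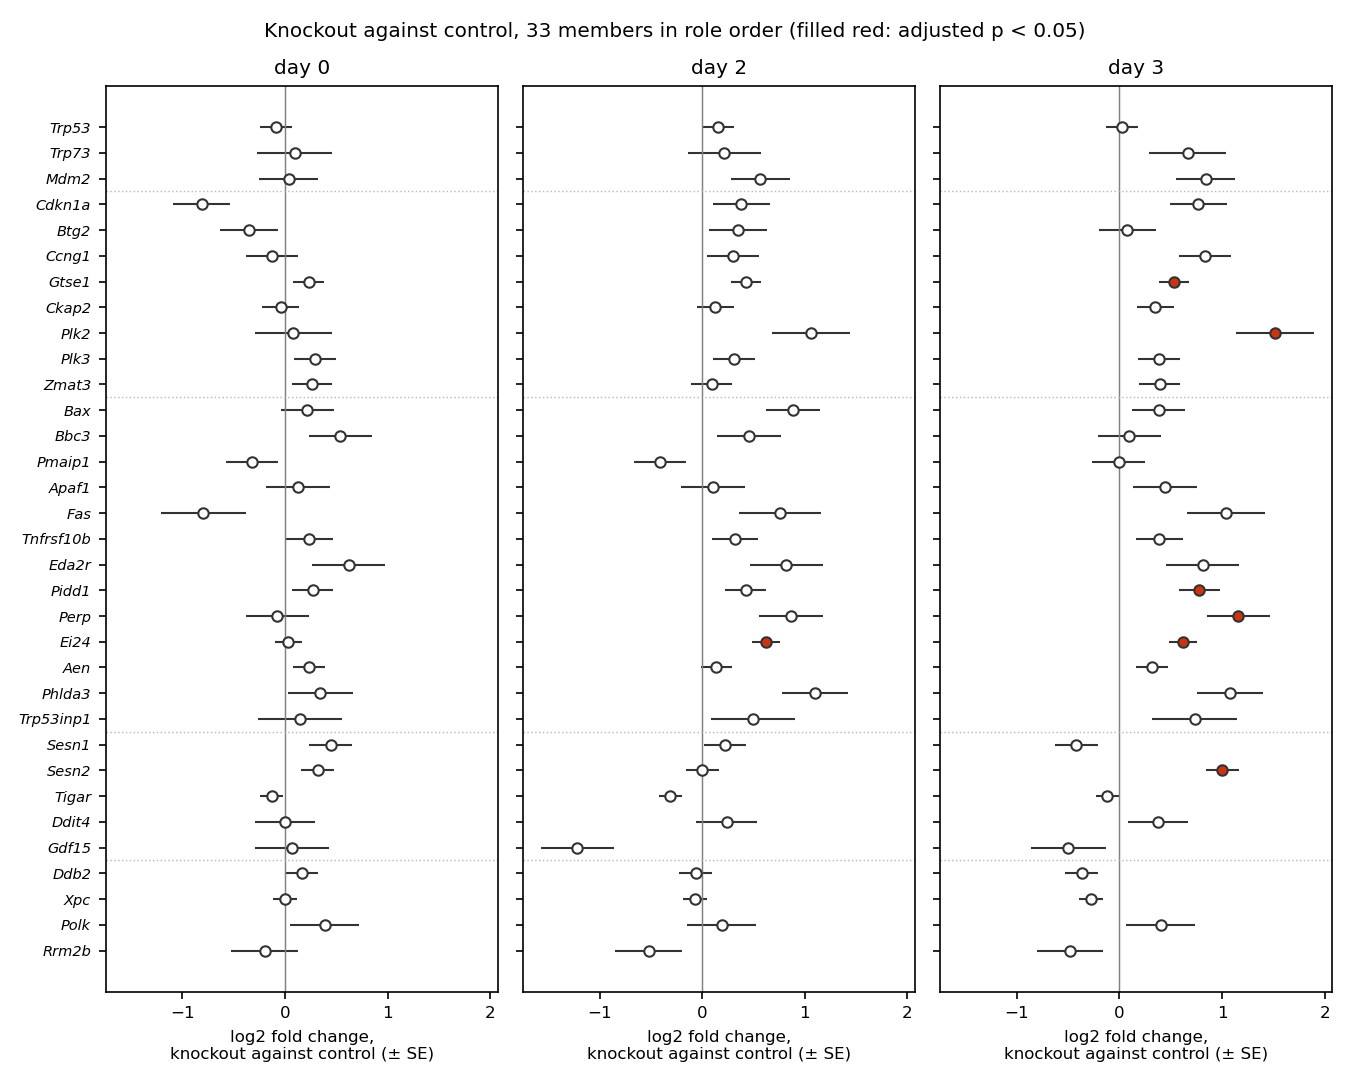
Log2 fold change (horizontal axis, ± SE) of the 33 members, knockout against control, at day 0, day 2 and day 3, with members in role order from the factor at the top to DNA repair at the bottom and dotted lines between roles. Filled points passed an adjusted p of 0.05: none at day 0, Ei24 at day 2 and 6 members at day 3.

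The factor's own gene was not called between genotypes at any day. Trp53 (chromosome 11, 69580359 to 69591872, plus strand, 11 exons) was at 621, 630 and 433 CPM in the day 0 controls (HM1 replicates 1 and 2 and line 1A4, the order kept below) and at 601, 598 and 390 CPM in knockout lines 14, 19 and 319. The groups overlapped, and in both the blastocyst-derived line was the lowest. At day 3 the controls held 167, 171 and 186 CPM and the knockouts 186, 167 and 181 CPM. Log2 fold changes, knockout against control, were -0.09 ± 0.16, 0.15 ± 0.16 and 0.03 ± 0.16 (all ± SE) at days 0, 2 and 3, with adjusted p = 0.957, 0.617 and 0.950. Mdm2 (chromosome 10, 117688875 to 117710758, minus strand, 12 exons) was at 220, 202 and 151 CPM in day 0 controls and at 214, 202 and 179 CPM in day 0 knockouts, which overlapped. At day 3 it was at 124, 109 and 155 CPM in controls and at 174, 223 and 305 CPM in knockouts. Here every knockout sample lay above every control, with a log2 fold change of 0.84 ± 0.29 that missed the threshold (adjusted p = 0.0996) and passed it without the library of line 19 at day 2 (adjusted p = 0.0294). Trp73 (chromosome 4, 154056253 to 154097173, minus strand), the gene of the p53 relative p73, was at 3.74, 3.04 and 6.95 CPM in day 3 controls and at 4.40, 2.88 and 17.4 CPM in day 3 knockouts. Those groups overlapped and line 319 stood high, with a log2 fold change of 0.66 ± 0.37 (adjusted p = 0.317).

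Among the 8 genes of cell cycle and growth arrest, 2 were called higher at day 3, Gtse1 and Plk2, and all 8 values were positive, from 0.08 to 1.52 with a median of 0.46. Cdkn1a (chromosome 17, 29093769 to 29100722, plus strand) encodes p21, the inhibitor of cyclin-dependent kinases through which p53 arrests the cycle. At day 0 it was at 91.6, 83.9 and 49.4 CPM in controls and at 55.8, 38.8 and 34.3 CPM in knockouts, which overlapped because line 1A4 lay below line 14. At day 3 the order was turned, with 56.6, 48.6 and 80.2 CPM in controls and 97.8, 102 and 114 CPM in knockouts, and the groups did not overlap. On the log2 scale Cdkn1a differed by -0.81 ± 0.28, 0.38 ± 0.28 and 0.77 ± 0.28 at days 0, 2 and 3, and none of these was called (adjusted p = 0.232, 0.458 and 0.116). Beside the day 0 values, the summed fibroblast markers were at 211 to 429 CPM in day 0 controls and at 156 to 262 CPM in day 0 knockouts, and their part in the Cdkn1a values was not tested.

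Gtse1 (chromosome 15, 85859745 to 85876530, plus strand), whose protein binds p53 and is made in G2, lay above all controls in every knockout sample on each of the 3 days. It was at 275, 280 and 244 CPM in day 0 controls and 327, 320 and 291 CPM in day 0 knockouts, and at 133, 116 and 154 CPM in day 3 controls and 176, 167 and 243 CPM in day 3 knockouts. Only the day 3 difference was called, at a log2 fold change of 0.53 ± 0.15 (adjusted p = 0.0492), against 0.23 ± 0.15 at day 0 (0.672) and 0.43 ± 0.15 at day 2 (0.134). Plk2 (chromosome 13, 110395046 to 110400844, plus strand), a polo-like kinase induced by stress, had the largest day 3 difference of the 33 members. Its level in day 3 controls was 52.0, 38.9 and 61.5 CPM, and in day 3 knockouts 102, 162 and 171 CPM, which did not overlap. The log2 fold change was 1.52 ± 0.38 (adjusted p = 0.0342). At day 2 the same gene was at 36.2, 34.6 and 80.5 CPM in controls and at 68.0, 60.3 and 195 CPM in knockouts, where line 1A4 lay above lines 14 and 19. The cyclin gene Ccng1 led the genes of this role that were not called at day 3, at 0.84 ± 0.25 (adjusted p = 0.0661). The kinase gene Plk3, the growth regulator Btg2, the spindle gene Ckap2 and the RNA-binding factor Zmat3 lay between 0.08 and 0.39 at day 3.

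**Figure D2:**
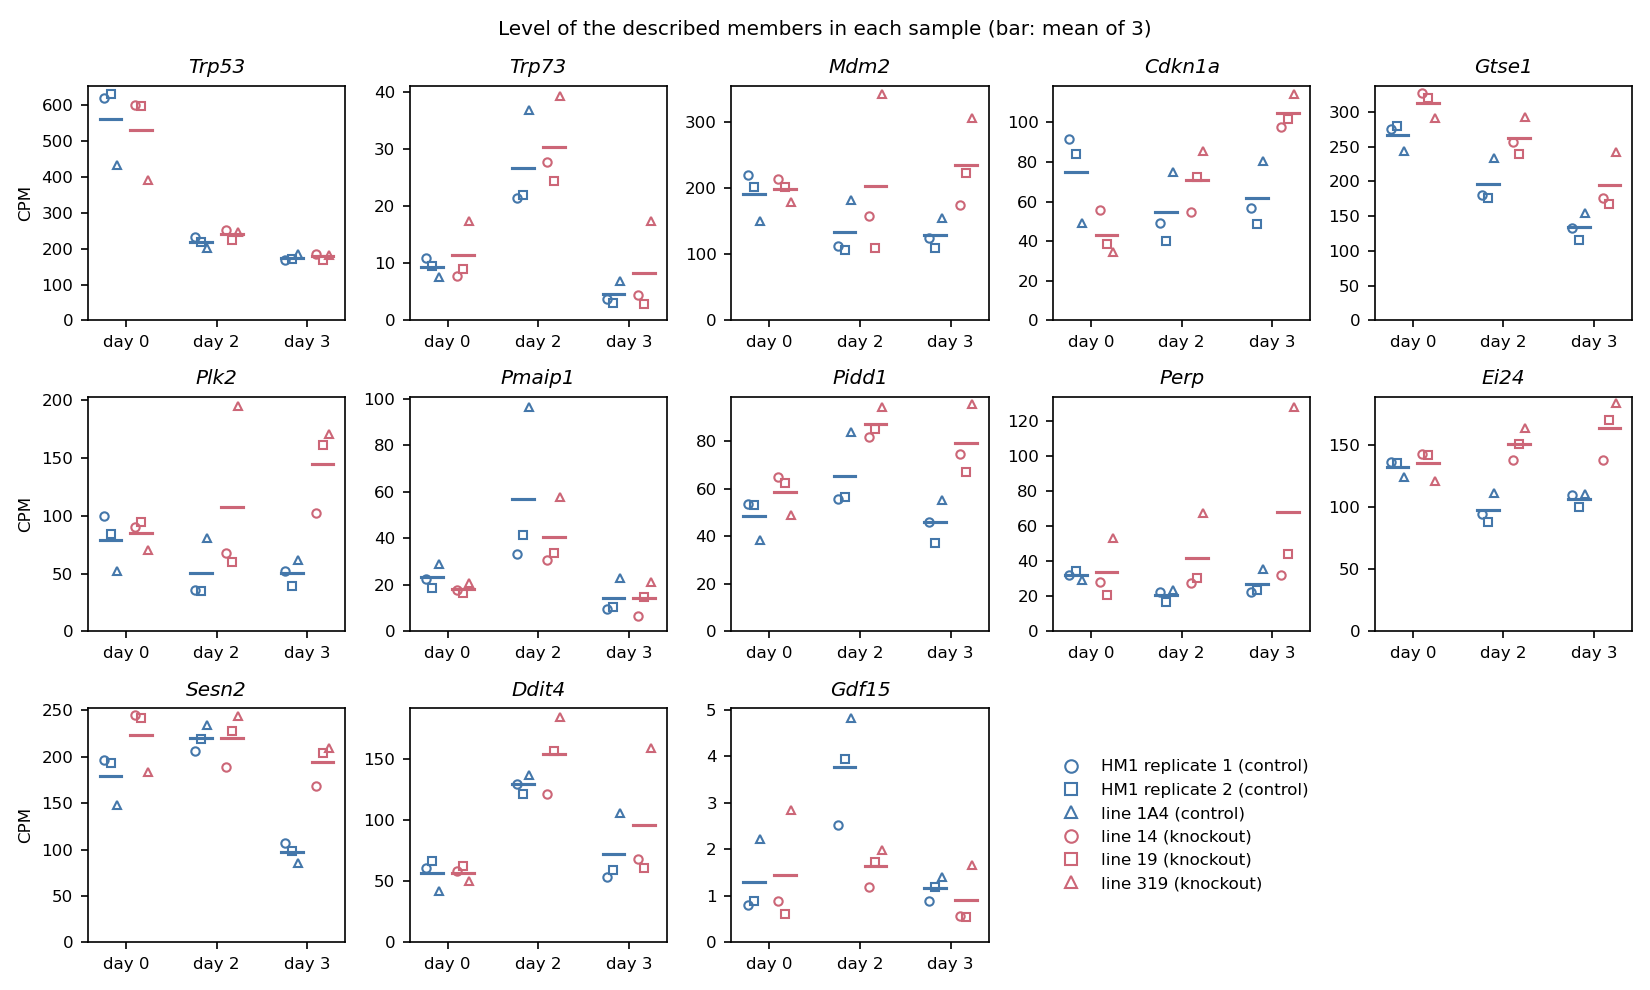
CPM (vertical axes, from 0) of 13 members in each of the 18 samples at day 0, 2 and 3, blue for controls and red for knockouts, with 1 symbol per line or replicate and bars at the mean of 3. At day 3 the red points lie above all blue points for Mdm2, Cdkn1a, Gtse1, Plk2, Pidd1, Ei24 and Sesn2, while Trp53 falls after day 0 in both genotypes.

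Of the 13 apoptosis genes, Ei24 was called higher at day 2 and Ei24, Pidd1 and Perp at day 3, and 12 of 13 values were positive at each of these days. Ei24 (chromosome 9, 36779159 to 36797273, minus strand) encodes a protein of the endoplasmic reticulum induced by p53. At day 0 there were 136, 135 and 124 CPM in controls and 142, 142 and 121 CPM in knockouts. At day 2 it was at 94.7, 87.7 and 111 CPM in controls and at 138, 151 and 164 CPM in knockouts, and at day 3 at 110, 99.9 and 110 against 138, 170 and 184 CPM. The groups overlapped at day 0 alone. Log2 fold changes of Ei24 were 0.03 ± 0.14, 0.63 ± 0.14 and 0.62 ± 0.14 at days 0, 2 and 3, with adjusted p = 0.988, 0.0325 and 0.0189. Without the library of line 19 at day 2 the day 2 value was 0.61 ± 0.13 (0.0251).

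Pidd1 (chromosome 7, 141438113 to 141443992, minus strand) encodes the core of the PIDDosome, the complex that activates caspase-2. In day 3 controls it was at 45.9, 37.2 and 55.3 CPM and in day 3 knockouts at 74.8, 67.1 and 95.7 CPM, with no overlap and a log2 fold change of 0.78 ± 0.20 (adjusted p = 0.0382). Perp (chromosome 10, 18845020 to 18857073, plus strand), a membrane protein of desmosomes and of p53-driven death, was at 22.5, 23.8 and 35.6 CPM in day 3 controls and at 32.0, 44.4 and 128 CPM in day 3 knockouts. The groups overlapped, since line 14 lay below line 1A4, and line 319 was by far the highest. Its log2 fold change was 1.16 ± 0.31 (adjusted p = 0.0427), and 0.59 with line 319 left out at all days (adjusted p = 0.112).

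The BH3-only gene Pmaip1 (chromosome 18, 66458533 to 66465560, plus strand) was the 1 apoptosis gene with no positive value at day 2 or day 3, the latter at -0.01, which became just positive (0.003) with DESeq2's size factors. It was at 33.5, 41.6 and 96.4 CPM in day 2 controls and at 30.8, 33.9 and 57.7 CPM in day 2 knockouts, which overlapped (log2 fold change -0.41 ± 0.26, adjusted p = 0.377). The death receptor gene Fas stayed low, at 0.418 to 1.13 CPM over the 6 day 0 samples. At day 3 it was at 1.88, 1.10 and 1.25 CPM in controls and 1.95, 3.09 and 4.09 CPM in knockouts, just without overlap (log2 fold change 1.04 ± 0.38, adjusted p = 0.120). Phlda3, an inhibitor of Akt, led the apoptosis genes that were not called, at 1.08 ± 0.32 at day 3 (adjusted p = 0.0654). The X-linked receptor gene Eda2r lay above all controls in every knockout on days 0 and 3, with values of 0.62 ± 0.35 (adjusted p = 0.601) and 0.81 ± 0.36 (0.193). Line 319 carries 2 X chromosomes and the other lines 1. Lines 14 and 19 were set against HM1, and line 319 against line 1A4. At day 0 Eda2r was then higher by 0.426, 0.398 and 1.176 on the log2 scale in lines 14, 19 and 319. At day 3 it was higher by 0.585, 0.95 and 0.892. The part of the X chromosome number was not tested.

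Among the 5 metabolism and stress genes, 1 was called, Sesn2 at day 3, and 2 of 5 values were positive at that day. Sesn2 (chromosome 4, 132492032 to 132510501, minus strand) encodes a leucine sensor that restrains mTORC1. At day 2 the groups overlapped, with 206, 220 and 235 CPM in controls and 189, 228 and 244 CPM in knockouts. At day 3 the controls had dropped to 108, 98.6 and 85.1 CPM, whereas the knockouts held 169, 204 and 209 CPM, with no overlap. The day 3 log2 fold change of 1.00 ± 0.16 had the smallest adjusted p of the members (0.00436). The day 2 value was 0.00 ± 0.16 (adjusted p = 0.994) and the day 0 value 0.32 ± 0.16 (0.516). Its paralogue Sesn1 went the other way at day 3, at 32.9, 29.96 and 35.3 CPM in controls and 24.4, 22.5 and 26.6 CPM in knockouts, without overlap but not called (-0.42 ± 0.21, adjusted p = 0.249).

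Ddit4 (chromosome 10, 59949669 to 59951834, minus strand), which encodes the mTORC1 inhibitor REDD1, overlapped between genotypes at each day, with a log2 fold change of 0.38 ± 0.29 at day 3 (adjusted p = 0.492). The stress cytokine gene Gdf15 (chromosome 8, 70629394 to 70632456, minus strand) was scarce. At day 2 it was at 2.52, 3.95 and 4.83 CPM in controls and at 1.20, 1.73 and 1.99 CPM in knockouts, so that every knockout lay below every control, also line 319 with its extra chromosome 8. The log2 fold change was -1.22 ± 0.36 (adjusted p = 0.0888 in edgeR, 0.0187 in DESeq2). Tigar, whose product lowers glycolytic flux, lay below all controls in every knockout on days 2 and 3 (-0.31 ± 0.12 and -0.12 ± 0.12, adjusted p = 0.153 and 0.609).

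The 4 repair and nucleotide genes were not called at any day, and 3 of the 4 were negative at day 3. The damage sensor genes Ddb2 and Xpc and the ribonucleotide reductase subunit gene Rrm2b lay below the controls in every day 3 knockout sample. With Sesn1 and Tigar they were the 5 members (15.2%) for which this held at day 3. Over all genes it held for 17.6%, so the members' share was no larger. Ddb2 was at 21.4, 20.1 and 20.8 CPM in controls and 13.03, 17.8 and 17.5 CPM in knockouts (log2 fold change -0.37 ± 0.16, adjusted p = 0.186). Xpc was at 39.9, 39.5 and 39.4 CPM in controls and 32.7, 33.8 and 31.8 CPM in knockouts (-0.27 ± 0.12, 0.178). The polymerase gene Polk was the positive one, at 0.40 ± 0.33 (0.530).

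The 6 day 3 calls depended on which samples entered. Left out with all its days, HM1 replicate 1 or HM1 replicate 2 each left 0 members called, at adjusted p from 0.0663 and 0.0787 (both Sesn2) up to 0.214 and 0.307 (both Gtse1), with log2 fold changes still between 0.56 and 1.64 and between 0.46 and 1.41. The number of calls over all genes then also fell, from 951 (5.2%) to 37 and 17. Without line 1A4, 2 of the 6 remained (Pidd1 and Sesn2), without line 14 there were 3 (Perp, Ei24 and Sesn2), without line 19 there were 4 (Gtse1, Pidd1, Ei24 and Sesn2) and without line 319 there were 3 (Plk2, Ei24 and Sesn2), in fits that called 1.87%, 2.49%, 5.75% and 10.8% of all genes. The day 2 call of Ei24 was lost without HM1 replicate 1, HM1 replicate 2 or line 1A4 (adjusted p = 0.283, 0.321 and 0.0926). Among HM1-derived lines alone, 3 of the 6 were called (Plk2, Pidd1 and Sesn2), and Cdkn1a was called higher as well, in a fit that called 6.06% of all genes. In the other direction, leaving out only the library of line 19 at day 2, whose spread enters the fit, gave 13 called members at day 3, while calls over all genes rose to 3007 (15.9%). All 6 were among them, with Mdm2, Ccng1, Zmat3, Eda2r, Phlda3 and Trp53inp1 also higher, and Xpc lower. Sesn2 was called in 13 of the 15 alternatives.

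Each knockout line was then set against the controls of its own background, lines 14 and 19 against the mean of HM1 and line 319 against line 1A4. On log2(CPM + 0.5), the median difference of the 33 members at day 3 was 0.35 in line 14, 0.46 in line 19 and 0.51 in line 319, and 25 of 33 members were positive in each line. At day 0 these medians were 0.04, 0.06 and 0.26, and at day 2 they were 0.35, 0.10 and 0.31. All 3 lines were higher for 22 members at day 3 (27.0% of all genes) and lower for 5 (26.8%). At day 0 the counts were 13 higher (19.4% of all genes) and 7 lower (20.3%), and at day 2 13 (16.8%) and 4 (19.0%). In lines 14 and 319 alone, the day 2 counts were 22 (28.6%) and 5 (29.6%). At days 0 and 3 the lines lay farthest apart in Perp and Trp73, both highest in line 319. At day 2 they did so in Trp53inp1, at 0.83, -1.25 and 0.93 in lines 14, 19 and 319, with Eda2r and Rrm2b next and line 19 the lowest in each.

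**Figure D3:**
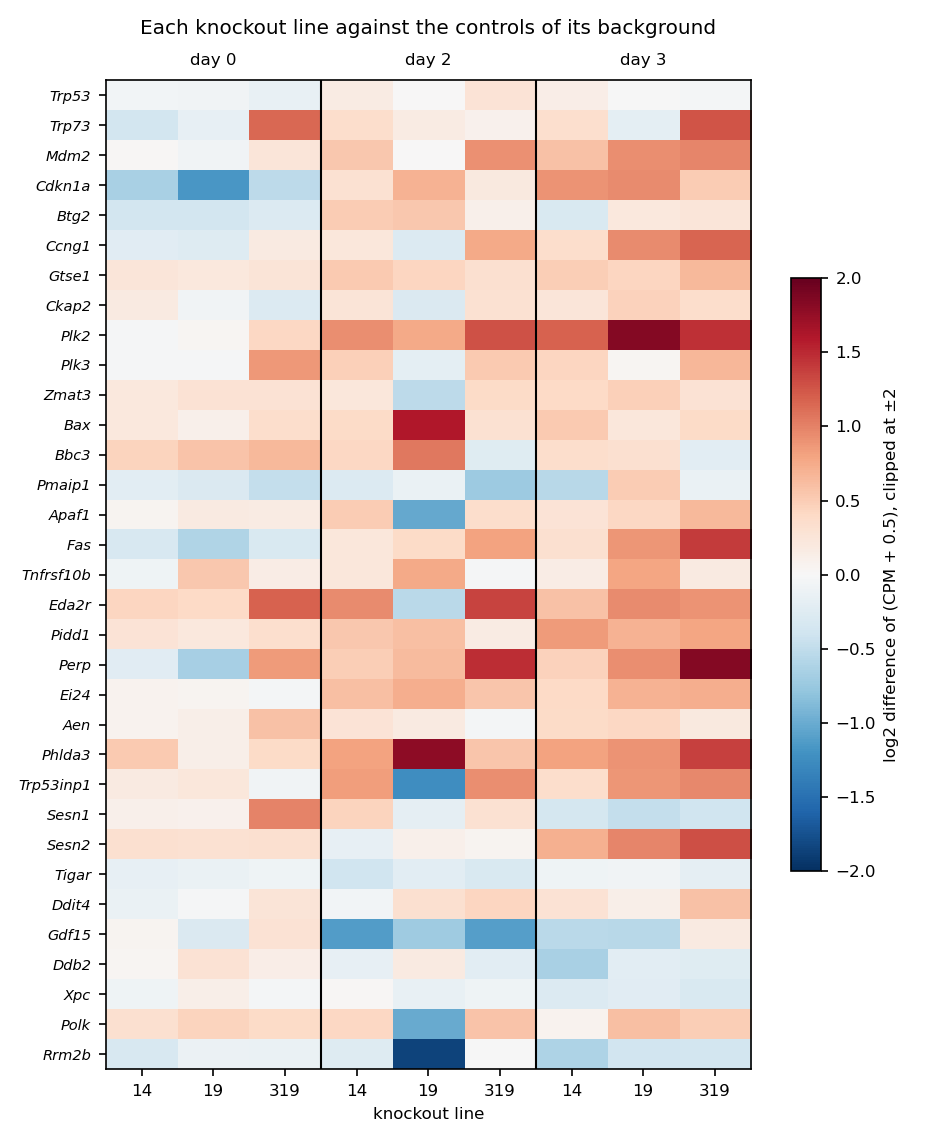
Log2 difference of (CPM + 0.5) of each knockout line from the controls of its background, 33 members by rows in role order and 3 lines by columns within each day, red for higher and blue for lower. Most rows are red in all 3 lines at day 3 (22 of 33), and line 19 at day 2 shows deep blue cells for the long transcripts of Rrm2b, Trp53inp1, Apaf1 and Polk.

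Whether the difference between genotypes changed from day to day was tested as an interaction. No member was called for day 2 against day 0 (0 of 33, background 0.0219%), for day 3 against day 2 (0, background 0.0383%) or for day 3 against day 0 (0, background 0.427%). At an unadjusted p under 0.05 edgeR gave 5, 2 and 9 members, against 7.16%, 8.9% and 10.9% of all genes, so that the 2 of 33 for day 3 against day 2 were no larger a share than over all genes. DESeq2 called 0, 1 and 1, against 0.451%, 0.68% and 2.45% of all genes. Cdkn1a had the smallest adjusted p for day 3 against day 0, with a shift of 1.58 ± 0.39 on the log2 scale (adjusted p = 0.101, and 0.0111 in DESeq2). In all 3 lines it lay below its controls at day 0, by -0.65, -1.17 and -0.52, and above them at day 3, by 0.89, 0.95 and 0.51. Over 16 alternatives the adjusted p of this shift ran from 0.0111 to 0.662, and 3 of them called it, among them the fit without line 1A4 (adjusted p = 0.0335). For day 3 against day 2 Sesn2 came first, with 1.00 ± 0.23 (adjusted p = 0.217, and 0.0102 in DESeq2).

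Along differentiation some members fell, and others rose to day 2 and fell back by day 3. From day 0 to day 2, 6 members (18.2%, against 19.7% of all genes) rose in the controls and 5 (15.2%, against 15.5%) fell. In the knockouts 7 (21.2%, against 20.8%) rose and 3 (9.09%, against 15.1%) fell. From day 2 to day 3, 2 (6.06%, against 12.5%) rose in the controls and 7 (21.2%, against 8.92%) fell. In the knockouts 2 (6.06%, against 17.6%) rose and 6 (18.2%, against 16.0%) fell. Only the fall from day 2 to day 3 in the controls was well above the share of all genes. The other shares were near or below it. The counts of members called moved with the samples kept. In the controls, 7 were called from day 0 to day 2 without HM1 replicate 1 and 16 without line 19, where calls over all genes went from 35.2% to 15.3% and 47.4%. From day 2 to day 3 the controls had 3 and 4 called without HM1 replicate 1 and 2 (6.78% and 6.57% of all genes, from 21.4%). The knockouts had 5 from day 2 to day 3 without HM1 replicate 1, HM1 replicate 2 or line 14 (23.4%, 24.3% and 23.7% of all genes, from 33.6%). They had 4 without line 19 (27.9%) and 12 without line 319 (40.6%). Leaving out only the day 2 library of line 19 gave 16 (46.1% of all genes) and 15 (38.8%) from day 0 to day 2 in controls and knockouts, of which 11 rose and 4 fell in the knockouts, and 11 (32.4%) and 6 (32.0%) from day 2 to day 3. These changes were tested within each genotype. The interaction test of edgeR called no difference between genotypes in any of them, and DESeq2 called that of Sesn2 for day 3 against day 2, given above.

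Trp53 fell to 231, 217 and 203 CPM in day 2 controls and 251, 225 and 246 CPM in day 2 knockouts, from the day 0 levels given above. Every day 2 sample lay below every day 0 sample. From day 0 to day 2 its log2 fold change was -1.36 ± 0.16 in controls (adjusted p = 1.91e-05) and -1.12 ± 0.16 in knockouts (7.84e-05). Its further fall from day 2 to day 3 was called in the knockouts (-0.43 ± 0.16, adjusted p = 0.0464) and missed the threshold with the replicate block, which pairs the days of a line (0.0740), and with any of the 6 series left out (0.0508 to 0.148). Tigar, Plk3 and Trp53 fell from day 0 to day 2 in both genotypes, Tigar by -1.04 ± 0.12 in controls (1.04e-05) and -1.22 ± 0.12 in knockouts (2.54e-06). In the controls Gtse1 and Ei24 fell as well.

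Trp73, Pmaip1, Ddit4 and Gdf15 rose at day 2 and fell again after retinoic acid in the controls. Trp73 was at 10.9, 9.47 and 7.54 CPM in day 0 controls, 21.4, 21.9 and 36.8 CPM at day 2 and 3.74, 3.04 and 6.95 CPM at day 3. Its log2 fold changes were 1.36 ± 0.37 (adjusted p = 0.00896) and then -2.58 ± 0.38 (0.000212), and in knockouts 1.49 ± 0.37 (0.00529) and -2.13 ± 0.38 (0.000653). The rise missed the threshold without HM1 replicate 2 in controls (0.0629) and without line 14 in knockouts (0.0741). Pmaip1 was at 22.6, 18.5 and 29.2 CPM in day 0 controls and at 9.80, 10.7 and 23.2 CPM in day 3 controls, on either side of the day 2 levels above. It rose by 1.17 ± 0.26 (0.00264) and then fell by 1.95 ± 0.26 (9.96e-05) on the log2 scale, and its rise missed the threshold without line 1A4 (0.0574). Thus the 3 day 2 controls were above every control of the other days in both genes.

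Ddit4 was at 60.9, 66.7 and 41.9 CPM in day 0 controls, 130, 122 and 137 CPM at day 2 and 53.2, 59.4 and 106 CPM at day 3. Its rise was 1.16 ± 0.30 in controls (adjusted p = 0.00684) and 1.39 ± 0.30 in knockouts (0.00208), and its fall in controls, -0.88 ± 0.30 (0.0453), missed the threshold with the replicate block (0.0778). Without HM1 replicate 1 both were missed (0.0561 and 0.343), and the fall also without HM1 replicate 2 (0.272) or line 14 (0.0760). Gdf15 was at 0.806, 0.889 and 2.23 CPM in day 0 controls and at 0.888, 1.20 and 1.41 CPM in day 3 controls, all below the 3 day 2 controls. The rise was 1.66 ± 0.35 in controls (adjusted p = 0.00202) and 0.37 ± 0.36 in knockouts (0.451), and the difference between these was not called (-1.29 ± 0.50, 0.596). Its fall to day 3 in controls, -1.68 ± 0.36 (0.00324), missed the threshold without HM1 replicate 1 (0.0513). For Sesn2 the fall from day 2 to day 3 was called in controls (-1.19 ± 0.16, 0.000105), and the value in knockouts was -0.19 ± 0.16 (0.386), with the interaction given above.

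**Figure D4:**
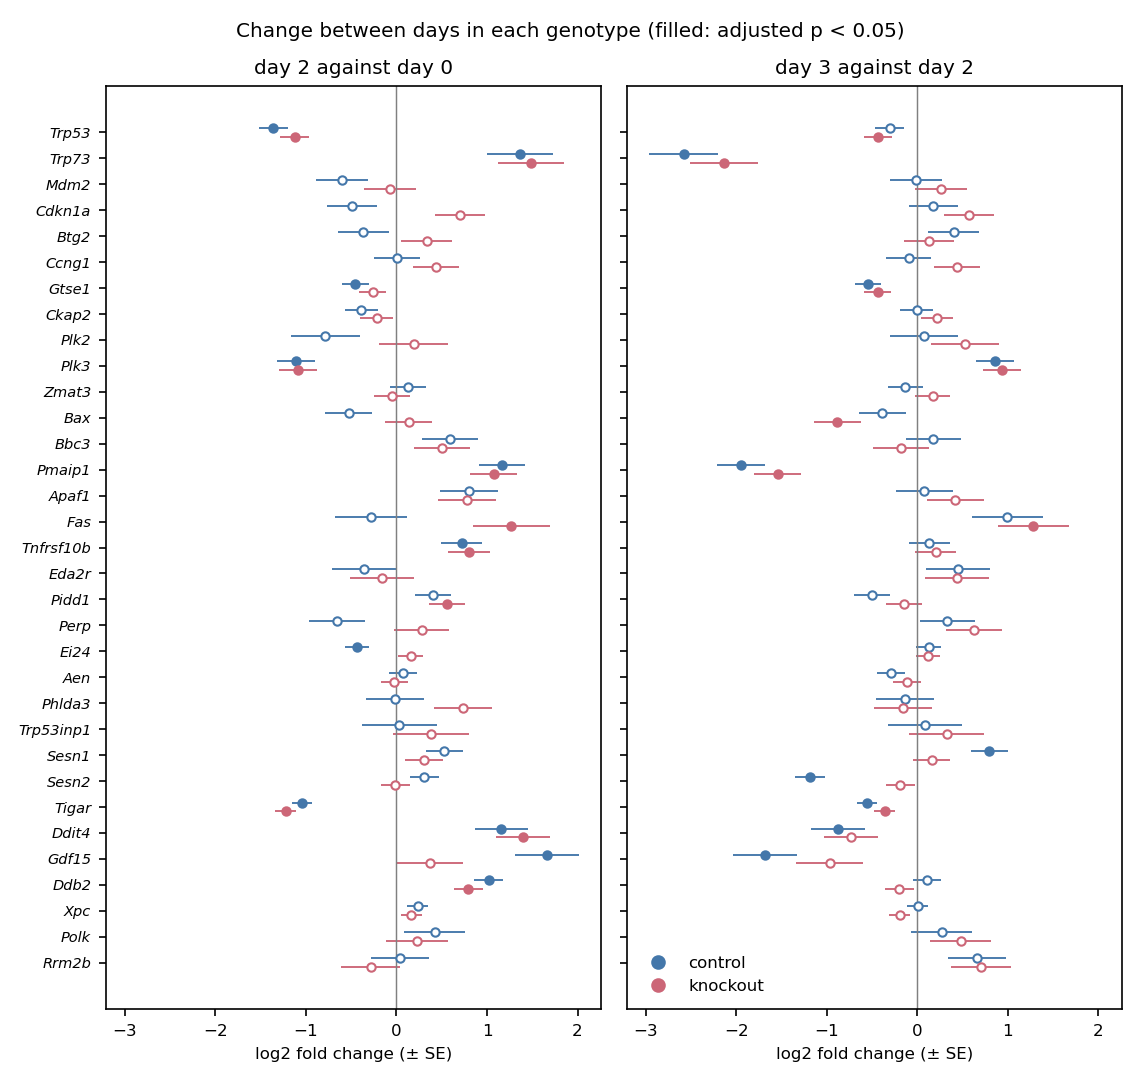
Log2 fold change (± SE, horizontal axis) of the 33 members from day 0 to day 2 and from day 2 to day 3, controls in blue and knockouts in red, filled where the adjusted p was under 0.05. Trp53, Plk3 and Tigar lie left of 0 in both genotypes in the left panel, and Trp73 and Pmaip1 lie right of 0 there and left of 0 in the right panel.

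The library of line 19 at day 2 stood apart by transcript length. Against the mean of lines 14 and 319 at day 2, its median log2 difference was 1.00 for transcripts up to 1.5 kb and -0.83 for those over 5 kb, over 11251 genes. In the other 17 samples, set against the rest of their groups in the same way, these medians lay between -0.59 and 0.44. Those extremes were of line 319 at day 2, whose comparator held line 19, as did that of line 14 at day 2 (-0.39 and 0.42). In the samples of the other groups the medians lay between -0.19 and 0.14. Over the 33 members the Spearman correlation of this difference with length was -0.58, given as a description of 1 library, and single members such as Aen (4956 bases, 0.20) and Fas (1481 bases, -0.39) lay outside that order. Bax, with the shortest counted transcript of the members (867 bases), was at 225, 527 and 225 CPM in lines 14, 19 and 319 at day 2 and at 172, 173 and 181 CPM in the controls. Without that library its day 2 difference between genotypes was 0.35 ± 0.14 (adjusted p = 0.205), against 0.88 ± 0.26 (0.0903) with it. The called fall of Bax from day 2 to day 3 in knockouts (-0.88 ± 0.26, 0.0171) became -0.37 ± 0.14 (0.0538). Trp53inp1, with a transcript of 5432 bases, was at 407, 95.6 and 689 CPM in the same 3 lines and at 221, 236 and 361 CPM in the controls. Its day 2 difference was 0.50 ± 0.41 with the library (0.520) and 0.97 ± 0.23 without it (0.0449). Eda2r likewise passed without it, at 1.24 ± 0.22 (0.0118). What set this library apart was not tested.

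**Figure D5:**
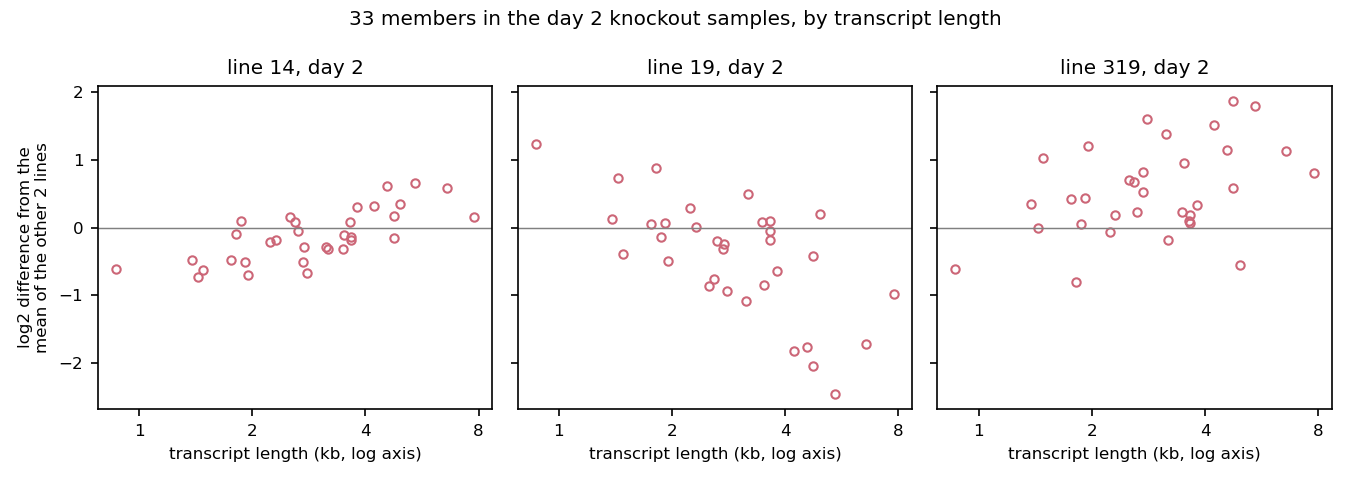
Log2 difference of each day 2 knockout sample from the mean of the other 2 lines (vertical axis) against the length of the counted transcript in kb (log axis), 1 point per member. In line 19 the shortest member, Bax, lies above 1 and the longest lie near or below -1. Lines 14 and 319 slope the other way, and line 19 is part of their comparator.

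The blastocyst-derived lines differed from the HM1-derived lines in 6 members over genotypes and days. Trp73, Plk3, Pmaip1, Perp and Gdf15 were called higher (2.73% of all genes) and the nuclease gene Aen lower (1.42%). Gdf15 had the largest value, 1.09 ± 0.21 on the log2 scale (adjusted p = 0.0114), followed by Trp73 at 0.93 ± 0.22 (0.0283) and Pmaip1 at 0.87 ± 0.15 (0.00567). Aen was at -0.41 ± 0.10 (0.0259). These values average over lines 1A4 and 319, which did not go together in every gene and day. At day 0 line 1A4 was the lowest control for Trp73 (7.54 CPM) and Perp (29.2 CPM). Line 319 was then at 17.4 and 53.3 CPM. At days 2 and 3 line 1A4 was the highest control for these genes, and for Plk3 and Pmaip1 it was so at each day. Line 319 adds chromosome 8, which carries Gdf15, and in that line origin, sex and karyotype cannot be told apart. Line 1A4, with 40 chromosomes and XY, was also the highest control for Gdf15 at each day. It was at 2.23, 4.83 and 1.41 CPM at days 0, 2 and 3. The part of the extra chromosome was not tested. Between 1 and 6 of these calls were found when 1 series was left out, with 1 left without HM1 replicate 1, line 14 or line 319, and 2 without HM1 replicate 2. Over all genes those fits called 170, 144, 133 and 352, from 759.

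Of the other genes of the pathway, 5 further targets, 2 regulators and 1 gene of G2 and mitosis were called between genotypes. Of 41 further p53 target genes 40 were tested, and the median log2 fold change, knockout against control, was -0.09, 0.10 and 0.18 at days 0, 2 and 3. Tgfa, which encodes a growth factor, was lower at day 0 (-1.20 ± 0.20, adjusted p = 0.00830) and Cyfip2 lower at day 2 (-0.90 ± 0.22, 0.0462). Over all genes 0.788% and 0.963% were called lower at these days. At day 3, 3 of 40 (7.5%) were called higher, where 2.75% of all genes were: the cytokine gene Kitl (1.15 ± 0.27, 0.0233), the adenylate kinase gene Ak1 (0.88 ± 0.15, 0.00603) and the small GTPase gene Rap2b (0.87 ± 0.18, 0.0137). These 3 did not overlap between groups, with Ak1 at 29.5, 24.7 and 38.3 CPM in controls and 49.9, 50.7 and 69.4 CPM in knockouts.

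The calls of Tgfa, Kitl, Ak1 and Rap2b were lost without HM1 replicate 1 or 2 (adjusted p up to 0.227), and that of Cyfip2 without any of the 3 controls (up to 0.304).

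Upstream of p53, 19 of 20 regulators were tested and 2 were called higher, 1 (5.26%) at day 2 and 1 at day 3, where 0.635% and 2.75% of all genes were. Cdkn2a, whose locus encodes the Mdm2 inhibitor Arf beside p16, was higher at day 2 (1.46 ± 0.33, adjusted p = 0.0401), at 5.98, 7.05 and 6.14 CPM in controls and 16.1, 28.7 and 9.47 CPM in knockouts. Line 19 was its highest sample, and without that library it missed the threshold (1.01 ± 0.29, adjusted p = 0.0844), as it did without any of the 3 controls (up to 0.287). Rchy1, which encodes the p53 ubiquitin ligase Pirh2, was higher at day 3 (0.53 ± 0.13, 0.0324), and was lost without any of the 3 controls or line 14 (up to 0.262). Downstream of p21, 16 genes of G2 and mitosis that p53 is known to repress through p21 and the DREAM complex had median log2 fold changes of 0.06, -0.15 and -0.08 at the 3 days. Of these the mitotic kinase gene Aurkb was called lower at day 3 (-0.62 ± 0.11, 0.00832), at 136, 123 and 111 CPM in controls and 90.2, 82.5 and 69.1 CPM in knockouts, a call that was lost without any of the 3 controls (adjusted p up to 0.120). Over all genes 2.45% were called lower at day 3. The 16 genes' summed level at day 3 was 3774 to 4020 CPM in controls and 3341 to 3456 CPM in knockouts. Beside these day 3 values, the summed fibroblast markers were at 301 to 423 CPM in day 3 controls and at 188 to 279 CPM in day 3 knockouts, the neural progenitor markers at 401 to 489 and 307 to 1123 CPM, and the pluripotency markers at 653 to 756 and 330 to 989 CPM. The 6 mesendoderm markers summed to 11.7 to 21.8 CPM in day 3 controls and 30.6 to 77.3 CPM in day 3 knockouts, with Lhx1 called higher among 5 tested, and the 6 primitive endoderm markers to 104 to 119 and 122 to 229 CPM, with Gata4 called higher. Over all genes 2.75% were called higher at day 3. The part of cell makeup in the day 3 differences was not tested.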

How the data were processed

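RNA of 18 biological samples, with 4 technical files each, was sequenced from stranded libraries of polyadenylated RNA per the labels. The authors deposited raw counts per Ensembl transcript. The submitters' processing notes name bcl2fastq 2.17.1.14, STAR 2.4.0k, SAMtools, HTSeq and the build mm10. Which annotation release was used, and whether counting used strand, is not given in the sources used here. Members that overlap another gene are therefore uncertain: Bax with Gm45808 on the same strand, and Trp73, Cdkn1a, Plk3, Ei24, Tigar, Ddb2 and Rrm2b with genes on the opposite strand. Identifiers were matched to GENCODE M21 (108214 of 110379), and those without a match held 1.44% to 2.48% of a sample's counts. The transcript with the highest total stood for its gene. Technical files were added up (chi-square per degree of freedom 1.01 to 1.03).

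edgeR 4.0.16 (R 4.3.3, limma 3.58.1) was run on all 18 samples with TMM scaling, filterByExpr and a robust quasi-likelihood fit of genotype by day with genetic background as a covariate (11 residual degrees of freedom). Benjamini-Hochberg adjustment ran over 18273 genes, and calls are at an adjusted p under 0.05. The SE printed with edgeR values is the absolute log2 fold change divided by the square root of the quasi-likelihood F statistic. DESeq2 1.42.0 was an alternative. Tested on simulated data for knockout against control at day 0 (18273 genes), the step recovered 31% of 100 genes changed 2-fold and 82% of 100 changed 4-fold, with 4 false among 117 calls. Days of a series are paired by cell line, and deviations of paired samples correlated at -0.08 (line 19, days 2 and 3) to 0.39. Members described by sample were Trp53, Cdkn1a, Mdm2, those called between genotypes, and the 6 with the largest change called between days in the controls. Fas, Sesn1, Ddb2, Xpc, Bax and Trp53inp1 were added after their values were seen, and the members and lists were chosen with earlier results of these data known.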

Additional observations from a re-analysis of the deposited data

Results flagged for a closer look

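For 6 members the knockout lines lay on opposite sides of their controls at different days, in all 3 lines each time. Such a turn was found in 2.54% of all genes for day 2 against day 0 and in 5.99% for day 3 against day 0, and in 12.1% of the members for each. For day 3 against day 2 it was found in 0 members and in 3.41% of all genes. Sign alone was counted, so differences near 0 on log2(CPM + 0.5) entered. Such were Trp53 in line 19 at day 2 (0.004), and at day 0 Ddb2 in line 14 (0.04) and Sesn1 in line 19 (0.081). The turns at day 2 also include the library of line 19 that stood apart by transcript length. None of these differences between days was called in edgeR's interaction test over all genes. The shift of Cdkn1a was 1.19 ± 0.39 on the log2 scale for day 2 against day 0 (adjusted p = 0.512) and 1.58 ± 0.39 for day 3 against day 0 (0.101). For Fas the shifts were 1.55 ± 0.58 (0.563) and 1.84 ± 0.56 (0.191), at levels of 0.418 to 4.09 CPM. For Btg2 the shift was 0.70 ± 0.40 (0.753) and for Trp53 0.24 ± 0.22 (0.830), both for day 2 against day 0. For Sesn1 it was -0.86 ± 0.29 (0.245) and for Ddb2 -0.53 ± 0.23 (0.393), both for day 3 against day 0, where these genes went from above to below their controls.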

How the results depend on the processing

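Of the single-gene values under the alternatives, 979 stayed on their side of the threshold, 64 lost it and 22 passed it. No called value changed sign, whereas 50 values of differences that were not called did. The number of members called moved more. For knockout against control at day 3 (6 called) it was 10 with DESeq2, 13 without line 19 at day 2, 2 with no background term, 15 with the samples of that day alone (11.3%, 15.9%, 2.82% and 15.1% of all genes, from 5.2%), and 0 to 6 with 1 series left out (0.0919% to 10.8%). At day 2 (1 called, 1.6% of all genes) it was 0 with transcripts added up (1.33%), 6 with DESeq2 (8.13%), 0 with no filter (1.02%) and 0 in HM1-derived lines alone (1.32%). It was 3 with the day 2 library of line 19 left out (2.01%), 0 with the samples of that day alone (0.0%) and 0 to 3 with 1 series left out (0.119% to 7.35%). Between days, leaving out 1 series gave 7 to 16 calls in place of 11 (controls, day 2 against day 0), 3 to 11 in place of 9 (controls, day 3 against day 2) and 4 to 12 in place of 8 (knockouts, day 3 against day 2), the last also 5 with no filter and 13 in HM1-derived lines alone. The interactions, with 0 called, gave 1 with DESeq2 for day 3 against day 2 (117 genes over all, from 7). For day 3 against day 0 they gave 1 with DESeq2, 1 in HM1-derived lines alone and at most 1 with a series left out. Over all genes these fits called 448, 143 and 6 to 401, from 78. The background term gave 1 to 6 calls with 1 series left out, in fits that called 133 to 2400 genes over all, from 759. The cause of these moves was not tested. With the replicate block, the 4 changes between days gave 12, 9, 8 and 6 calls in place of 11, 10, 9 and 8, lost Ddit4 (controls, adjusted p = 0.0778), Gtse1 and Trp53 (knockouts, 0.0557 and 0.0740) from day 2 to day 3 and Pidd1 (knockouts, 0.0648) from day 0 to day 2, and added Perp (controls, day 0 to day 2, 0.0459). A block cannot be combined with the genotype comparison within a day, since each series has 1 genotype. The fits without 1 series leave 1 HM1 or 1 line fewer at each day. With 3 samples per group, differences of 2-fold are often missed.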
